A study of Mus musculus with 6 samples.

Results

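The mouse genes examined here were 10 markers of bile duct cells, hepatic progenitor cells and the fetal or malignant liver: Sox9, Epcam, Krt19, Krt7, Krt8, Krt18, Krt23, Afp, Gpc3 and H19. They were picked by name from the 56884 genes of the mouse count table, with earlier results of these data known. RNA labelled as liver was sequenced from male BALB/c (nu/nu) mice, 6 weeks old and lacking mature T cells, which carried human hepatocellular carcinoma (HCC) cells in the liver. At week 1 after implantation they received an AAV8 vector through the tail vein, carrying either siControl or siAATF, and were followed for 3 more weeks. Both vectors used the TBG promoter, which is active in hepatocytes. There were 3 libraries of each group, siControl (labelled genotype WT) and siAATF (labelled KD). Both groups carried the same human tumor cells, vector serotype and promoter. The labels give no animal for each library, so p-values measure only the spread between these libraries.

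The liver epithelium has 2 lineages that arise from a common fetal progenitor. Hepatocytes make albumin and the paired keratins Krt8 and Krt18, while cholangiocytes, which line the bile ducts, keep Krt8 and Krt18 and add Krt7, Krt19, Epcam and the transcription factor Sox9. Afp and H19 are abundant in fetal liver, are silenced after birth, and are used together with the proteoglycan Gpc3 as oncofetal markers of HCC. In a xenograft, mouse reads come from the host cells around the tumor, the tumor microenvironment (TME), and human reads come from the tumor.

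The depth of the mouse data differed between the groups. Mouse gene counts ran from 213022 to 913584 in the siControl libraries and from 11835898 to 42563694 in the siAATF libraries. Mouse genes held between 0.778% and 1.93% of the counts of a siControl library, but between 97.9% and 99.0% of those of a siAATF library, with human genes holding the rest. A count of 0 therefore allowed up to 14.1 CPM (counts-per-million, here of mouse counts before any scaling) in siControl replicate 2, the shallowest library. In siAATF replicate 1, the deepest, it allowed up to 0.0705 CPM. These limits cover counting error only. The number of human reads moved with the group, so an effect of the human share, or of human reads placed on mouse genes, cannot be told apart from that of the vector. The labels do not say whether a library was taken from tumor or from the liver around it, so a difference in the tissue sampled cannot be told apart from the vector either. Mouse Aatf, the target, was counted 12, 1 and 23 times in the siControl libraries against 384, 109 and 340 times in the siAATF libraries, and was not called in either direction (log2 fold change 0.93, SE 0.47, edgeR adjusted p = 0.152, and -0.91 with library size alone, adjusted p = 0.176). The mouse counts thus did not show the labelled knockdown, and siControl and siAATF name the libraries by their labels throughout.

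On mouse counts, the main test called Epcam and H19 lower in the libraries labelled siAATF and did not call the other 8 genes. Neither call held without siControl replicate 1 or without siControl replicate 3. On a scale of human and mouse gene counts together, both means were higher in siAATF (2.59-fold for Epcam and 1.40-fold for H19). The groups overlapped on that scale. The fits used edgeR's quasi-likelihood test on counts scaled by TMM (trimmed mean of M-values), and a gene was called at a Benjamini-Hochberg adjusted p under 0.05 over all genes tested. All 10 genes passed the filter of at least 10 counts in total. With edgeR, 0 of the 10 were called higher and 2 lower, against a background of 17.6% of 18018 genes called higher and 14.4% called lower. The 2 lower calls of 10 lay near that share, and the difference was not tested. At an unadjusted p under 0.05, 2 were higher and 2 lower, a count for which no share of all genes was computed. DESeq2 called 1 higher and 2 lower, against 16.8% and 16.3% of all genes. The criterion of the study, an unadjusted p under 0.05 and a log2 change of 2 or more in size, gave 0 higher and 2 lower, against 13.6% and 13.1% of all genes. The median log2 fold change was -0.06 over the 10 genes and 0.50 over all genes tested; the first was 0.67 without siControl replicate 1, -0.39 without siControl replicate 2 and -1.88 with library size alone, so its sign rested on single libraries and on the scaling. Counts were low, since 7 of the 10 genes had fewer than 50 counts in the siControl libraries together and 6 were at 0 in siControl replicate 2. In these bulk samples, fewer cells of a type and less RNA per cell cannot be told apart.

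**Figure D1:**
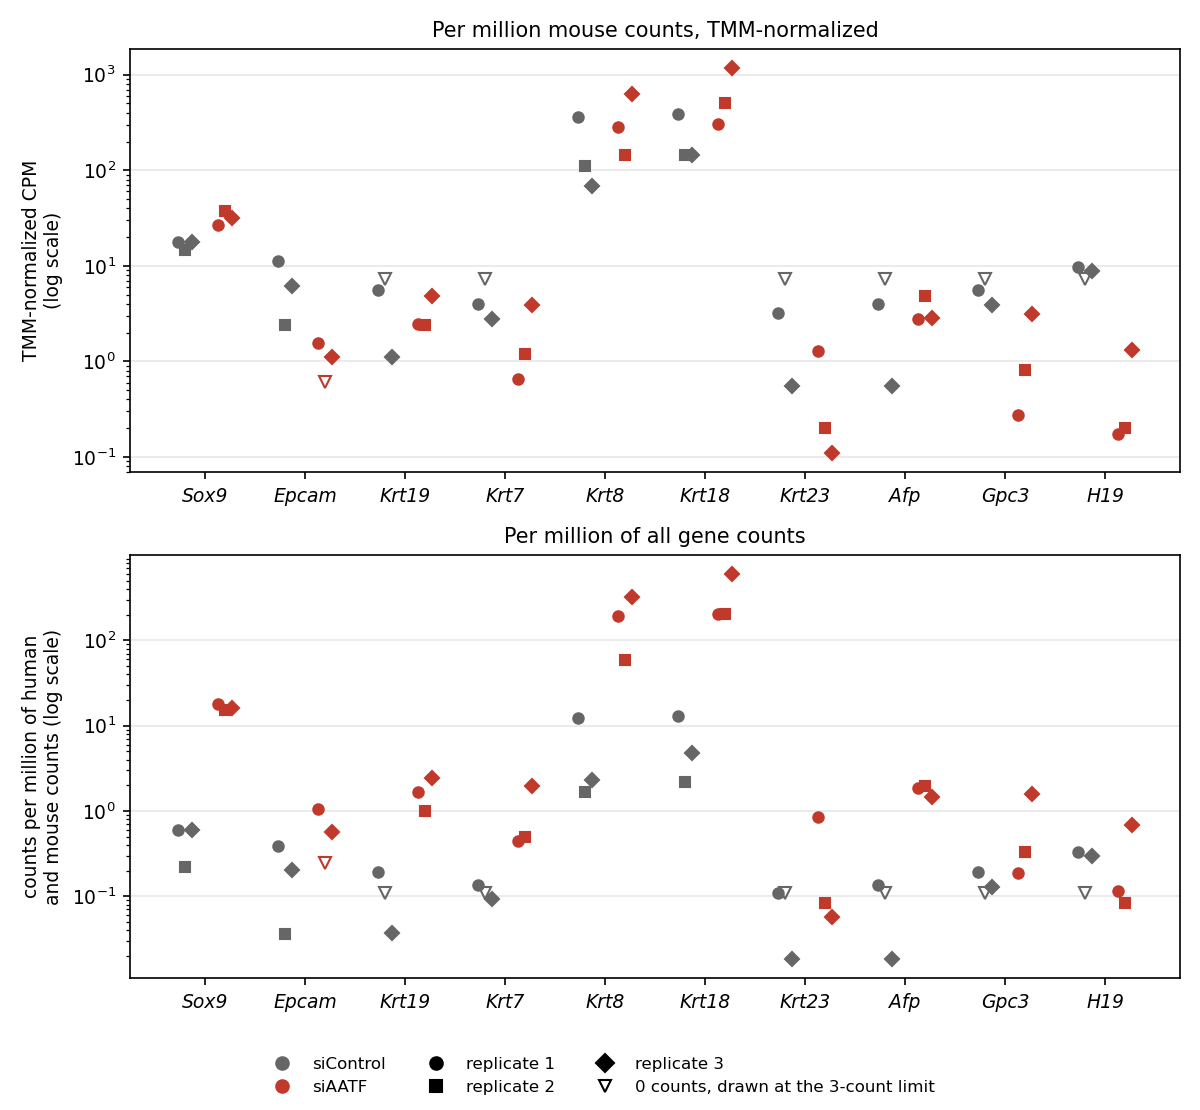
Level of each gene in every library on log axes, as TMM-normalized CPM of mouse counts (upper panel) and as CPM of human and mouse gene counts together (lower panel). Grey marks are siControl and red marks siAATF, the shape gives the replicate, and an open triangle marks 0 counts, drawn at the 3-count limit of that library. In the upper panel Epcam was lower and Sox9 higher in every siAATF library, whereas in the lower panel 6 genes were higher in every siAATF library and none was lower.

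The bases just upstream of Epcam, H19 and Afp are shown. They were picked because the first 2 were called lower by the main test and Afp is an oncofetal gene shut down after birth. Each run is the 250 bases before the gene's start in the deposited table, on the strand of the gene, read from the mouse genome build GRCm39: chr17:87943157-87943406 on the plus strand for Epcam, chr7:142131884-142132133 on the minus strand for H19, and chr5:90638346-90638595 on the plus strand for Afp. Capitals mark motif letters found on either strand, and no marked motif overlapped another in these windows.
Epcam: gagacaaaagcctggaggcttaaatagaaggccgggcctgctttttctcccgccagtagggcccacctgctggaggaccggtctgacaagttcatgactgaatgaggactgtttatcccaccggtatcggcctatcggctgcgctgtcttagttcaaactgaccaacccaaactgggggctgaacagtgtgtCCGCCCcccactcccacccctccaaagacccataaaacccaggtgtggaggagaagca
H19: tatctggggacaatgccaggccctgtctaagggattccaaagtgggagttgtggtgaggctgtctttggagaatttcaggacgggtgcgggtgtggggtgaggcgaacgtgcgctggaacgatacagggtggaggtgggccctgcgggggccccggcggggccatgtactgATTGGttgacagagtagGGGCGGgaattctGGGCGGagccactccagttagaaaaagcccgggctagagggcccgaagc
Afp: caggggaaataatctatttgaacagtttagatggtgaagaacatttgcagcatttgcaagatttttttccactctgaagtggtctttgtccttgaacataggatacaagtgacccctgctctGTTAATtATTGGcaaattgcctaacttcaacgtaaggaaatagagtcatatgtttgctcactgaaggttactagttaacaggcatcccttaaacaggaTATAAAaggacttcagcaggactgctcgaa
The Epcam window held 1 GC box (GGGCGG, here on the reverse strand), 58 bases upstream of the start. The H19 window held 2 GC boxes, 62 and 49 bases upstream, and a CCAAT box (CCAAT) on the reverse strand, 79 bases upstream. The Afp window held an HNF1 motif (GTTAAT), 128 bases upstream, a CCAAT box on the reverse strand, 121 bases upstream, and a TATA box (TATAAA), 30 bases upstream. The GC content was 56.4% for Epcam, 61.6% for H19 and 38.8% for Afp. Over the windows of all 10 genes, the GC box was found in 5, the CCAAT box in 4, the HNF1 motif in 2, and the TATA box and the AP-1 site (TGANTCA) in 1 each. Of the 18017 windows of the same length searched, the GC box was in 46.1%, the CCAAT box in 34.6%, the TATA box in 9.14%, the HNF1 motif in 5.1% and the AP-1 site in 4.94%. A match is a description of these letters only.

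Epcam encodes an adhesion molecule of the bile duct and progenitor cell surface (mouse chromosome 17, 87943407 to 87958557, plus strand, GRCm39). In siControl it had 14, 1 and 11 counts (replicates 1, 2 and 3, an order kept throughout), against 45, 0 and 20 in siAATF. The TMM-normalized levels were 11.2, 2.41 and 6.13 CPM in siControl but 1.55, 0 and 1.11 CPM in siAATF. Every siAATF library lay below every siControl library, with means of 6.59 ± 4.43 and 0.886 ± 0.799 CPM (SD, n = 3 each). The log2 fold change was -2.83 (SE 0.90, 95% interval -4.78 to -0.87, edgeR adjusted p = 0.0300). Of the 10 genes, 1 was lower without overlap, against 18.1% of all genes tested. The counts pooled over each group gave a ratio of 0.166 between siAATF and siControl, with a counting interval of 0.104 to 0.273. The call was lost without siControl replicate 1 (log2 fold change -2.29, adjusted p = 0.162) and without siControl replicate 3 (-2.96, adjusted p = 0.0843).

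Sox9, the transcription factor of the ductal plate and the biliary lineage (chromosome 11, 112673050 to 112678586, plus strand), did not pass the test. The siControl levels were 17.6, 14.5 and 17.8 CPM, against siAATF levels of 26.9, 37.7 and 31.5 CPM, from 22, 6 and 32 counts and 781, 187 and 569 counts. The siAATF libraries lay above all siControl libraries, at 32.04 ± 5.40 against 16.6 ± 1.88 CPM (SD, n = 3 each), as did 34.5% of all genes tested. The log2 fold change was 0.91 (SE 0.35, 95% interval 0.15 to 1.68, edgeR adjusted p = 0.0657), and turned to -0.93 when counts were scaled by library size alone. With every library thinned to the smallest mouse total it was 0.077 (edgeR adjusted p = 0.942). Counted against each other, there were 1.57, 6.00 and 2.91 Sox9 counts per Epcam count in siControl, against 17.4 and 28.5 in replicates 1 and 3 of siAATF. In siAATF replicate 2 the ratio was undefined, with 187 Sox9 counts and 0 Epcam counts. Both genes are read as biliary markers, and the levels of the 2 genes relative to each other differed between the groups in every library where both were counted; this ratio was not tested.

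Krt19 and Krt7 are keratins that within the liver mark the bile ducts, and neither passed the test. Krt19 (chromosome 11, 100031636 to 100036946, minus strand) gave 7, 0 and 2 counts in siControl, against 72, 12 and 87 in siAATF. Its levels were 5.61, 0 and 1.11 CPM against 2.48, 2.42 and 4.82 CPM, and the groups overlapped. The means were 2.24 ± 2.97 and 3.24 ± 1.37 CPM (SD, n = 3 each), with a log2 fold change of 0.34 (SE 0.85, 95% interval -1.51 to 2.19, edgeR adjusted p = 0.792). That interval covers falls and rises alike, so no difference in host Krt19 was detectable at this depth. The pooled ratio of 1.26 had a counting interval of 0.650 to 2.81.

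Krt7 (chromosome 15, 101310283 to 101328194, plus strand) gave 5, 0 and 5 counts in siControl, against 19, 6 and 70 in siAATF. Its mean was 2.27 ± 2.05 CPM in siControl and 1.91 ± 1.72 CPM in siAATF (SD, n = 3 each), with overlapping groups. The log2 fold change was -0.47 (SE 0.95, edgeR adjusted p = 0.739). Of its 95 counts in siAATF, 70 came from replicate 3, the library that also held the most Krt19. There were 0.714 and 2.50 Krt7 counts per Krt19 count in replicates 1 and 3 of siControl, against 0.264, 0.50 and 0.805 in siAATF. Replicate 2 of siControl held neither.

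Krt23, a keratin seen in stressed and ductular liver epithelium (chromosome 11, 99368800 to 99383963, minus strand), was the scarcest of the 10 in counts. In siControl it gave 4, 0 and 1 counts, against 37, 1 and 2 in siAATF, so 1 siAATF library held nearly all of them. The means were 1.25 ± 1.71 and 0.529 ± 0.648 CPM (SD, n = 3 each), and the log2 fold change was -1.30 (SE 1.26, edgeR adjusted p = 0.444). The counting interval of its pooled ratio ran from 0.210 to 1.73.

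Krt8 and Krt18 are obligate partners that build the intermediate filaments of hepatocytes and of simple epithelia, and their genes lie 23697 bases apart on chromosome 15. Both were abundant in both groups. Krt8 (101905133 to 101912917, minus strand) gave 448, 46 and 124 counts in siControl, against 8328, 716 and 11336 in siAATF. This was 359, 111 and 69.1 CPM against 287, 144 and 628 CPM, with overlapping groups and means of 180 ± 157 and 353 ± 249 CPM (SD, n = 3 each). The log2 fold change of Krt8 was 0.97 (SE 0.67, 95% interval -0.49 to 2.43, edgeR adjusted p = 0.294), and it was called higher without siControl replicate 1 (1.98, adjusted p = 0.0481), whereas without siAATF replicate 3 its log2 fold change was 0.36 (adjusted p = 0.662). An antisense gene, Gm36026, overlaps Krt8 with 10 counts in all, and the pseudogene Krt8-ps had 10; whether counting used the strand is not given in the sources used here.

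Krt18 (101936615 to 101940462, plus strand) gave 479, 60 and 257 counts in siControl, against 8752, 2490 and 20987 in siAATF. Its levels were 384, 145 and 143 CPM against 302, 502 and 1163 CPM, with 1 siAATF library below the highest siControl library. The means were 224 ± 139 and 655 ± 451 CPM (SD, n = 3 each), and the log2 fold change of 1.54 (SE 0.62, 95% interval 0.19 to 2.89) missed the threshold (edgeR adjusted p = 0.0771). The call changed with the tool, since DESeq2 gave an adjusted p of 0.0323. It was also called without siControl replicate 1 (adjusted p = 0.0308), without siAATF replicate 1 (adjusted p = 0.0246) and without siAATF replicate 2 (adjusted p = 0.0444), but not without siControl replicate 2 (adjusted p = 0.235), siControl replicate 3 (adjusted p = 0.287) or siAATF replicate 3 (log2 fold change 0.92, adjusted p = 0.203). Its fitted change was 0.85 with thinned libraries and turned to -0.30 when counts were scaled by library size alone.

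The 2 partners kept no fixed ratio, but the ratio did not separate the groups. Each Krt18 count came with 0.935, 0.767 and 0.482 Krt8 counts in siControl, against 0.952, 0.288 and 0.540 in siAATF (two-sided exact permutation p = 0.7). Together Krt8 and Krt18 made up 93.0% to 97.8% of all keratin counts in siControl, against 98.3% to 99.1% in siAATF. Host keratin reads in both groups were thus almost wholly those of simple epithelium. There were 14.6, 0 and 7.78 Krt19 counts per 1000 Krt18 counts in siControl, against 8.23, 4.82 and 4.15 in siAATF, with overlap. Of 49 other keratin genes, 37 were at 0 in every library and 2 had enough counts to be tested. Krt10, a keratin of stratified epithelium, gave 0, 0 and 2 counts in siControl, against 86, 34 and 96 in siAATF, a pooled ratio of 7.18 with a counting interval of 1.96 to 59.6 (edgeR adjusted p = 0.0296). The other, Krt80, had 4, 3 and 6 counts against 5, 0 and 14 and was called lower (log2 fold change -3.52, edgeR adjusted p = 0.0241); it had too few counts for the naming rule and was named after its values were seen.

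Set against albumin, the hepatocyte product, both keratins were lower in every siAATF library. For every 1000 Alb counts there were 145, 105 and 61.0 Krt8 counts in siControl, against 6.79, 11.6 and 19.1 in siAATF, 8.53-fold lower by the means of the log2 ratios. For Krt18 there were 155, 137 and 126 in siControl, against 7.14, 40.2 and 35.4 in siAATF, 6.42-fold lower; without siAATF replicate 1 the log2 difference for Krt18 was -1.88 in place of -2.68. The exact permutation p was 0.1 for each (two-sided, adjusted p = 0.15 over the 3 ratios tested), which is the smallest that 3 libraries against 3 allow. These ratios need no scaling and differed between the groups in these libraries, but the permutation test could not go below 0.1. Alb itself was called higher (3081, 438 and 2033 counts against 1226288, 61950 and 593091, log2 fold change 4.23, SE 1.02, edgeR adjusted p = 0.00687).

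**Figure D2:**
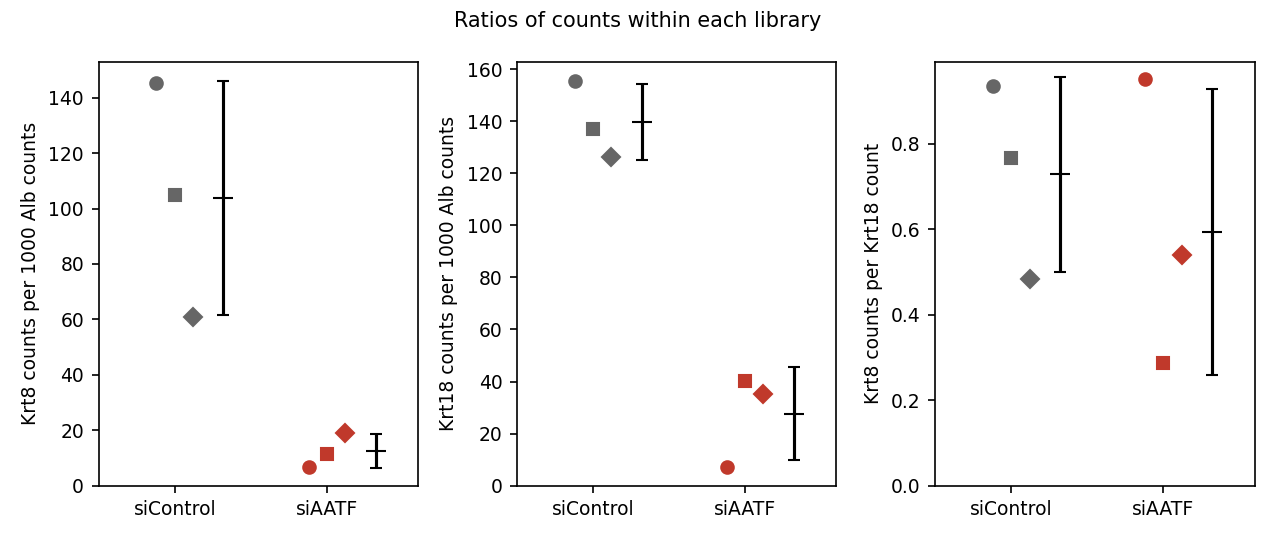
Ratios of counts within each library: Krt8 and Krt18 counts per 1000 Alb counts and Krt8 counts per Krt18 count, with linear axes from 0. Circles, squares and diamonds are replicates 1, 2 and 3, and the bars give the mean ± SD of 3 libraries. Both keratins lay far lower against Alb in every siAATF library, whereas the Krt8 to Krt18 ratio overlapped between the groups.

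Afp, the fetal relative of albumin, lies 14134 bases downstream of Alb on chromosome 5 (90638596 to 90656766, plus strand). In siControl it gave 5, 0 and 1 counts, against 80, 24 and 51 in siAATF, or 4.01, 0 and 0.557 CPM against 2.76, 4.84 and 2.83 CPM. The groups overlapped at means of 1.52 ± 2.17 and 3.47 ± 1.18 CPM (SD, n = 3 each), and the log2 fold change of 0.96 (SE 0.90, 95% interval -0.99 to 2.91) was not called (edgeR adjusted p = 0.426). Per 10000 Alb counts, Afp gave 16.2, 0 and 4.92 counts in siControl, against 0.652, 3.87 and 0.860 in siAATF, again with overlap. Host Afp was below 5 CPM in the 5 libraries in which it was counted, whereas Alb, its neighbor, was called higher. Without siControl replicate 1 the log2 fold change of Afp was 2.93 (adjusted p = 0.114), and without siControl replicate 3 it was 0.36. An antisense noncoding gene, Gm43449, overlaps Afp and had no siControl count but 72, 4 and 34 counts in siAATF, and reads of the pair cannot be told apart if the strand was not used.

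Gpc3, a heparan sulfate proteoglycan of the cell surface (chromosome X, 51361303 to 51702827, minus strand), gave 7, 0 and 7 counts in siControl, against 8, 4 and 56 in siAATF. Its means were 3.17 ± 2.88 and 1.39 ± 1.503 CPM (SD, n = 3 each), with overlapping groups. The log2 fold change of -1.37 (SE 1.02, 95% interval -3.58 to 0.84) was not called (edgeR adjusted p = 0.325), although the counting interval of the pooled ratio ran from 0.180 to 0.621. Without siAATF replicate 3 it was -2.85 (adjusted p = 0.0578) and without siAATF replicate 1 -0.80. Under scaling by library size alone it was called lower (log2 fold change -3.24, adjusted p = 0.0114).

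H19, an imprinted noncoding RNA of fetal tissues (chromosome 7, 142129268 to 142131883, minus strand), fell by the fit of all 6 libraries more than Epcam, an order that turned without siAATF replicate 1 (-2.95 against -3.32). In siControl it gave 12, 0 and 16 counts, against 5, 1 and 24 in siAATF, although the siAATF libraries held many times more mouse reads. The levels were 9.62, 0 and 8.91 CPM in siControl but 0.172, 0.201 and 1.33 CPM in siAATF. The 0 of siControl replicate 2, where 3 counts equal 7.24 CPM after TMM scaling, made the groups overlap. In the other siControl libraries H19 lay above every siAATF library. The means were 6.18 ± 5.36 and 0.568 ± 0.660 CPM (SD, n = 3 each), with a log2 fold change of -3.51 (SE 1.00, 95% interval -5.68 to -1.33, edgeR adjusted p = 0.0176). The pooled ratio was 0.0712, with a counting interval of 0.0411 to 0.124. The call was lost without siControl replicate 1 (log2 fold change -3.19, adjusted p = 0.0711), without siControl replicate 3 (-3.25, adjusted p = 0.0944) and with every library thinned to the smallest mouse total (-4.59, adjusted p = 0.0627), and without siAATF replicate 3 the log2 fold change was -5.10. The microRNA gene Mir675, which lies within H19 on the same strand, had 0 counts in every library. Reads there overlap both genes, so this 0 is not a measure of the microRNA.

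**Figure D3:**
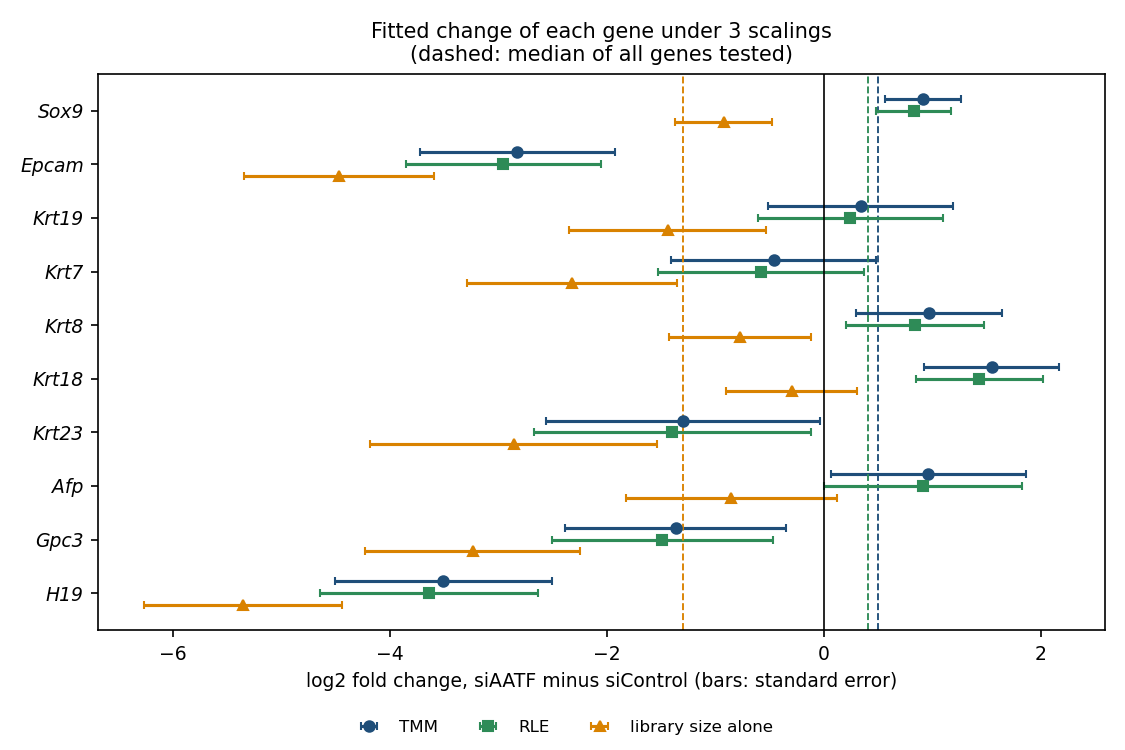
Fitted log2 fold change (siAATF minus siControl) of each gene, with its standard error as a bar, under TMM, RLE (relative log expression) and library size alone. Dashed lines mark the median of all genes tested under each scaling, at 0.50, 0.40 and -1.30. Epcam and H19 were below 0 under all 3 scalings, and Sox9, Krt19, Krt8, Krt18 and Afp changed sign when library size alone was used.

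The sign of 5 genes depended on the scaling. With library size alone the fitted changes were -0.93 for Sox9, -1.44 for Krt19, -0.77 for Krt8, -0.30 for Krt18 and -0.85 for Afp, against a median of -1.30 over all genes, and none of these genes was called. Mitochondrial genes took between 4.04% and 10.5% of the mouse counts of siControl, against between 20.8% and 56.1% in siAATF; their part in these fitted changes was not tested.

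On a scale of CPM of human and mouse gene counts together, a scale that moves with the mouse share of each library, all 10 means were higher in siAATF. Of the 10, 6 were higher in every siAATF library (Sox9, Krt19, Krt7, Krt8, Krt18 and Afp), against 83.9% of all genes, and 0 were lower, against 0.655%. The ratio of means was 49.97-fold for Krt18 (6.69 ± 5.71 against 334 ± 224), 35.3-fold for Krt8, 35.2-fold for Sox9 and 34.0-fold for Afp (n = 3 each). Krt19 was 22.4-fold and Krt7 12.7-fold higher. Each of these 6 gave a two-sided exact permutation p of 0.1, adjusted p = 0.167 over the 10 genes. Mouse Aatf was 34.9-fold and Alb 365-fold higher on the same scale, and the ratios of all 10 genes were below that of Alb. H19 had the smallest ratio, at 0.208 ± 0.181 against 0.292 ± 0.335 (exact permutation p = 0.8), and Epcam the next, at 2.59-fold (exact permutation p = 0.5). Krt23 at 7.81-fold and Gpc3 at 6.54-fold also overlapped between the groups. Single libraries carried much of several differences of means. Without siAATF replicate 3 the difference went from 328 to 198 for Krt18, 186 to 121 for Krt8, 0.896 to 0.393 for Krt7 and 0.593 to 0.151 for Gpc3. Without siAATF replicate 1 it went from 0.291 to 0.0269 for Krt23 and 0.330 to 0.0748 for Epcam, which without siAATF replicate 2 stood at 0.598. For H19 it turned to -0.0199 without siControl replicate 2 and to -0.109 without siAATF replicate 3. With mitochondrial genes left out of the total, all 10 differences kept their sign and grew, from 16.1 to 25.8 for Sox9, 1.71 to 2.86 for Afp and 0.0843 to 0.168 for H19.

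Compared per length, as TMM-normalized CPM per kilobase of exon (RPKM), the order of the levels was led by the same 3 genes in both groups. In siControl, Krt18 stood at 156 ± 96.5, Krt8 at 91.8 ± 80.1, Sox9 at 4.03 ± 0.455, Epcam at 3.19 ± 2.15 and H19 at 2.702 ± 2.34 RPKM (SD, n = 3 each). The others lay between 0.553 (Krt7) and 1.42 (Krt19), and the only neighbors in this order whose ranges did not overlap were Krt8 and Sox9. In siAATF, Krt18 stood at 456 ± 314, Krt8 at 180 ± 127, Sox9 at 7.75 ± 1.30, Krt19 at 2.06 ± 0.869 and Afp at 1.68 ± 0.572 RPKM. Ranges did not overlap between Krt8 and Sox9, between Sox9 and Krt19, and between Afp and the next gene, Gpc3, at 0.519. Epcam moved from the fourth place to the eighth, at 0.430 ± 0.387, and H19 from the fifth to the last, at 0.248 ± 0.289 RPKM.

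The wider programs around these genes did not move as one. Over 6 lists of biliary, progenitor, Notch, fetal liver, Afp regulator and epithelial junction genes, 68 of 78 genes were tested, with 18 called higher and 18 lower, where 17.6% and 14.4% of all genes were. With library size alone these counts were 8 and 35, where 4.15% and 40.3% of all genes were called, and without siControl replicate 3 the first was 12. Among the biliary genes, 11 of 15 were tested, 3 rose and 3 fell, with a median log2 fold change of -1.05 against 0.50 over all genes. With library size alone 2 were called higher and 7 lower, at a median of -2.82, and without siControl replicate 1 the median was -0.54. The transcription factors Onecut1 (4, 0 and 2 counts against 2127, 382 and 223, log2 fold change 4.96, edgeR adjusted p = 0.000876) and Onecut2 (log2 fold change 3.66, SE 0.56), which act in both liver lineages, rose. Spp1, the secreted phosphoprotein osteopontin of bile duct cells and of macrophages, fell from 1616 ± 592 to 38.6 ± 3.87 CPM (log2 fold change -5.39, SE 0.62), and Bicc1, an RNA-binding protein of ducts, fell (log2 fold change -2.49, SE 0.43).

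Progenitor and ductular reaction genes were mostly lower, with 5 of 8 falling, 1 rising and a median log2 fold change of -3.12. Of all genes, 14.4% were called lower and 17.6% higher with edgeR. No such share was computed for the counts at an unadjusted p given for the lists below. Cd44, the hyaluronan receptor, fell from 160 ± 76.1 to 5.87 ± 5.09 CPM, and the adhesion molecule Ncam1 from 54.2 ± 8.89 to 2.49 ± 1.29 CPM (log2 fold changes -4.72 and -4.47). Lgr5, a Wnt-responsive receptor that pericentral hepatocytes also express, rose, with 0, 1 and 1 counts in siControl, against 198, 77 and 126 in siAATF, a pooled ratio of 13.3 with a counting interval of 3.66 to 110 (edgeR adjusted p = 0.00562). It was not called with library size alone (adjusted p = 0.123) or without siControl replicate 3 (adjusted p = 0.0515). Cd44 is also expressed by leukocytes and fibroblasts and Ncam1 by nerves, so neither gene is particular to liver progenitors.

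The Notch pathway, which drives biliary fate through Sox9 and Hes1, had 7 of 13 genes called lower and 0 higher with edgeR (1 higher and 8 lower at an unadjusted p under 0.05, 0 and 8 with DESeq2, 0 and 11 with library size alone). Its median log2 fold change was -1.96. Of all genes, 14.4% were called lower with edgeR, 16.3% with DESeq2 and 40.3% with library size alone. Hes1 itself, named after its values were seen, gave 24, 15 and 52 counts in siControl, against 1111, 462 and 684 in siAATF, and was not called (28.1 ± 8.504 and 56.4 ± 31.7 CPM, log2 fold change 1.04, edgeR adjusted p = 0.104). The endothelial members Notch4 and Dll4 fell most among its better counted genes, from 30.7 ± 6.38 to 1.84 ± 1.153 CPM and from 29.3 ± 0.677 to 1.84 ± 1.96 CPM (log2 fold changes -4.05 and -3.83). Of fetal liver genes, 13 of 18 were tested, with a median of -1.24. With edgeR 3 fell and 0 rose, against 14.4% and 17.6% of all genes. At an unadjusted p under 0.05, 1 was higher and 4 lower, and with DESeq2 0 and 3. With library size alone 8 fetal liver genes were called lower, where 40.3% of all genes were. Without siAATF replicate 2 it was 5, and without siControl replicate 3 their median was -0.05. The imprinted gene Mest, like H19 a fetal growth gene, fell from 21.2 ± 6.73 to 0.954 ± 0.571 CPM (log2 fold change -4.61), and the fetal desaturase Scd2 fell by 3.42 on the log2 scale.

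Regulators of Afp moved the other way, with 6 of 9 rising and 0 falling with edgeR (7 and 0 at an unadjusted p under 0.05, 7 and 0 with DESeq2), and a median log2 fold change of 2.33. Of all genes, 17.6% were called higher with edgeR and 16.8% with DESeq2. Foxa2 and Hnf4a, liver transcription factors that activate hepatocyte genes, rose by 3.44 and 3.27 on the log2 scale. Zbtb20, which represses Afp after birth, gave 92, 79 and 192 counts in siControl, against 20642, 10741 and 11243 in siAATF, and rose (log2 fold change 3.25, SE 0.67, edgeR adjusted p = 0.00271). Zhx2, the other postnatal repressor of Afp, had 12, 0 and 16 against 403, 64 and 129 counts and was not called (log2 fold change 0.62, adjusted p = 0.432). These 2 repressors lay outside the naming rule and were named for their link to Afp after their values were seen. Of 14 tested epithelial junction and splicing genes, 8 rose and 0 fell with edgeR (11 and 0 at an unadjusted p under 0.05, 8 and 0 with DESeq2), among them the polarity gene Crb3 (log2 fold change 4.12) and the splicing regulator Esrp2 (3.99, and 5.90 without siControl replicate 1). Without siControl replicate 3, 5 of these junction and splicing genes were called higher, where 9.08% of all genes were. With library size alone, 2 regulators of Afp (Hnf4a and Foxa2) were called higher and 0 lower, so Zbtb20 was not called. Under that scaling 4 junction genes were called higher and 3 lower, where 4.15% and 40.3% of all genes were.

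**Figure D4:**
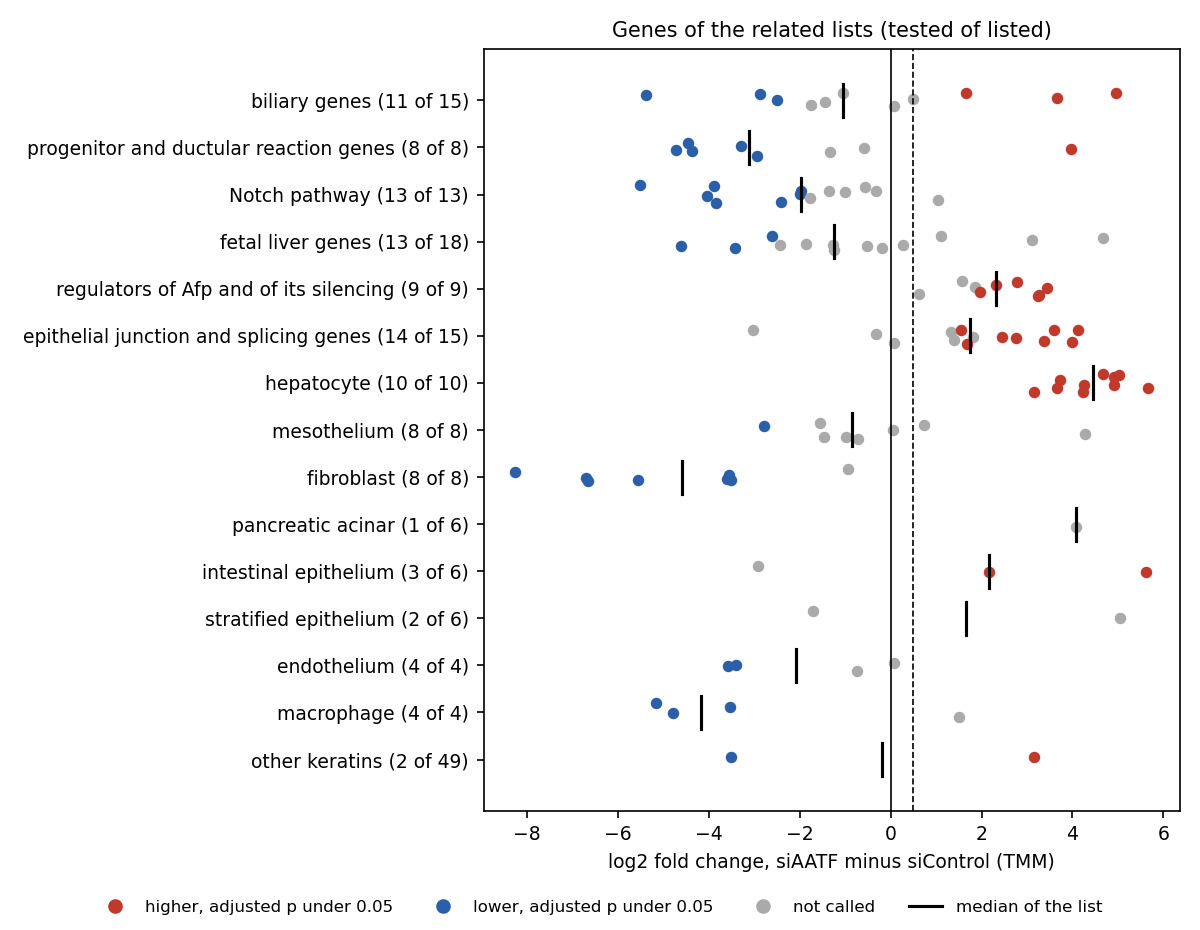
Fitted log2 fold change (siAATF minus siControl, TMM) of every tested gene in each list, with the numbers tested and listed beside the name; red and blue points were called higher and lower at an adjusted p under 0.05, and grey points were not called. Black ticks are list medians, and the dashed line is the median of all genes at 0.50. Progenitor, Notch and fibroblast genes lay mostly to the left, and hepatocyte, junction and Afp regulator genes mostly to the right.

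Markers of the other cells in the tissue moved with the groups. All 10 hepatocyte markers were called higher, with a summed level between 2003 and 5707 CPM in siControl, against 31721 to 81261 CPM in siAATF. With library size alone 9 were called, as without siControl replicate 2, and 8 without siControl replicate 3. Of all genes, 17.6% were called higher and 14.4% lower in the main fit. Of 8 fibroblast markers, 7 were called lower, from 8352 to 12423 CPM down to 343 to 494 CPM, as were 2 of 4 endothelial and 3 of 4 macrophage markers. The other macrophage marker, Clec4f, which marks Kupffer cells, lay higher in every siAATF library, with 55, 1 and 24 counts in siControl, against 2015, 225 and 1246 in siAATF, and was not called (19.96 ± 21.6 and 61.3 ± 13.8 CPM, edgeR adjusted p = 0.0705). It was called higher with no filter, with a replicate block and without siControl replicate 1, siAATF replicate 2 or siAATF replicate 3. The part of these shifts in the lower calls of Epcam and H19, or in the levels of Krt8 and Krt18, was not tested. Mesothelium, the liver surface layer, also carries Krt7, Krt8, Krt18 and Krt19: its 8 markers summed to 32.1, 7.24 and 16.7 CPM in siControl, against 3.79, 5.24 and 26.7 CPM in siAATF, with 1 called lower. The highest siAATF value was that of replicate 3, the library that also held the most Krt7, Krt8, Krt18, Krt19, Gpc3 and H19 among the siAATF libraries, and the part of mesothelium in those levels was not tested. Pancreatic acinar markers summed to 0 to 0.802 CPM. Of 6 stratified epithelium markers, 3 (Krt5, Dsg3 and Trp63) were at 0 in every library; Col17a1 gave no siControl count, against 10, 2 and 10 in siAATF, Krt14 gave 0, 0 and 4 against 0, 0 and 2, and Sbsn 2, 0 and 2 against 0, 0 and 16. Col17a1 and Sbsn had enough counts to be tested, and 0 were called with edgeR, as at an unadjusted p under 0.05 and with DESeq2. Of 6 intestinal markers, 3 were tested and 2 called higher, Fabp2 and Lgals4 (2 higher and 1 lower at an unadjusted p under 0.05). Vil1 gave 1, 0 and 6 counts in siControl, against 5, 3 and 1 in siAATF, and was not called (log2 fold change -2.92, edgeR adjusted p = 0.0903), Muc2 gave 3, 0 and 0 against none, and the defining transcription factors Cdx1 and Cdx2 were at 0 in every library. Apart from Fabp2 and Lgals4, these single markers were named after their values were seen.

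By pattern over the 6 libraries, the genes most like Krt19 were Rabif (Pearson r = 0.995 of log2(CPM + 1)), Map3k11 (0.984) and Pik3r4 (0.977), out of 9466 genes with a mean of at least 50 counts. Those most like Afp were Arvcf (0.985), Zbtb45 (0.983) and Cant1 (0.980), and those most like H19 were Rhno1 (0.994), Nhlrc3 (0.986) and Xpo1 (0.975). None of these 9 genes was among the members of the lists above. The points share libraries and depth, 1 of them rests on a count of 0, and with so many genes compared such values are a description only.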

How the data were processed

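RNA from 6 samples labelled liver (3 siControl, 3 siAATF) was analyzed from the deposited gene counts. The authors trimmed reads with Cutadapt, aligned them with STAR 2.7.11 to the human and mouse genomes (GRCm39 for mouse), and counted mouse and human genes with featureCounts 2.0.1; the values are raw counts per gene, deposited without normalization. Mouse identifiers were named from GENCODE release 39 (56323 of 56884), and 1 human gene broken over 3 lines was left out. Human genes carried no names and were used for totals only. Depth ran from 213022 to 42563694 mouse counts per library.

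Mouse counts were tested with edgeR 4.0.16 (quasi-likelihood, TMM, at least 10 counts in total, group as the only term) in R 4.3.3 and limma 3.58.1, with Benjamini-Hochberg adjustment over 18018 genes; single values used exact permutation tests over the libraries. The alternatives were DESeq2 1.42.0, RLE, library size alone, 2 other filters, thinning, a replicate block and leaving out each library. The code of the test was run on simulated counts with known changes and no general shift in composition between the groups. That run cannot tell how the test behaves where the composition differs as it did here. Pooled ratios have 95% exact binomial intervals, which cover counting error only. Members and gene lists were chosen with earlier results of these data known. The genes named are the 10 members, Aatf and Alb, and in each list the 2 largest called rises and falls with a mean of at least 10 counts; other genes of the lists are said to be named after their values were seen. Promoter windows were read from the GRCm39 genome, at the starts in the deposited table; of the 10 windows, that of Epcam equalled the RefSeq window, 6 differed from it and 3 (H19 among them) were not compared. Human counterparts and protein sequences were not analysed here.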

Additional observations from a re-analysis of the deposited data

How the results depend on the processing

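Among the 10 genes, none was called higher in the main test. DESeq2, no filter and a replicate block each called 1 (Krt18), where 16.8%, 14.7% and 21.4% of all genes were called higher. Leaving out 1 library gave 0 to 2, where 9.08% to 21% of all genes were called higher. The 2 falls (Epcam and H19) were called under RLE, library size alone, no filter, the replicate block, DESeq2 and the study's threshold. Of all genes, these settings called between 10.7% (no filter) and 40.3% (library size alone) lower. The falls became 0 with at least 10 counts in every library, which left 2 of the 10 genes to test. They became 0 with thinning too, which left 4. Leaving out 1 library gave 0 to 2 falls, where 9.7% to 14.7% of all genes were called lower. Over the 6 related lists, 18 higher calls became 8 with library size alone, 4 with at least 10 counts in every library and 12 to 21 without 1 library. The 18 lower calls became 35, 10 and 16 to 19. With library size alone 4.15% of all genes were called higher and 40.3% lower. With at least 10 counts in every library 18 list genes were left to test, and 24.5% and 24.6% of all genes were called higher and lower.

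Library size alone turned the log2 fold change to -0.93 for Sox9, -1.44 for Krt19, -0.77 for Krt8, -0.30 for Krt18, -0.85 for Afp and -0.91 for Aatf, and moved the share of higher calls among all called genes from 55.0% to 9.33%; thinning moved it to 40.6%. Leaving out 1 library gave -0.15 (without siControl replicate 3) to 1.93 for Krt19, -1.50 to 0.015 (without siAATF replicate 1) for Krt7 and -1.84 to 0.41 (without siControl replicate 1) for Krt23. Without siAATF replicate 1, which held 37 of its 45 counts, Krt23 did not pass the filter and was not tested. The H19 difference in CPM of all gene counts ran from -0.109 (without siAATF replicate 3; -0.0199 without siControl replicate 2) to 0.189, and the log2 ratio of Krt8 to Krt18 from -0.83 to 0.030 (without siAATF replicate 2). The cause was not tested.

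The replicate numbers did not pair the libraries: correlations of same-numbered deviations were 0.154, 0.213 and -0.0552. The replicate block called 3854 mouse genes higher and 2912 lower, against 3169 and 2593 without it. In the siControl libraries together, 7 of the 10 genes had fewer than 50 counts, Epcam and H19 among them.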
